A study of Rattus norvegicus with 9 samples.

Results

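The genes described here are 31 named genes of T cell identity and of signalling from the T cell receptor, measured by RNA sequencing in peripheral blood mononuclear cells of rats. Each was found by its symbol in the deposited table. Of the 31 symbols, 30 matched 1 line each among 22077 intact genes, and all 30 were among the 12447 genes that were frequent enough to be tested. The symbol Il7r, the interleukin-7 receptor, was not analysed here. The 30 genes comprise 4 chains of the CD3 complex, the coreceptors CD4 and CD8, the tuning receptors CD5 and CD6, costimulatory molecules, kinases and adaptors that pass the signal on, transcription factors of the T lineage, and Thy1.

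Mononuclear cells are the lymphocytes, monocytes and related nucleated cells of blood. All rats were wild-type and of the Sprague-Dawley strain. Blood came from rats in normoxia at day 0 and from rats of the Sugen-hypoxia model at day 28 and at day 56, with 3 libraries per group. Sugen-hypoxia pairs a blocker of VEGF receptors with a stay in low oxygen and raises the pressure in the arteries of the lung. The labels give no age, and the only normoxic libraries are those of day 0, so that day, age and treatment cannot be told apart. They also do not say whether replicates were separate animals. The p-values therefore measure the spread between these libraries, which may be technical.

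T cells recognise peptides on MHC molecules through a receptor whose signal is carried by the CD3 chains. The kinase Lck, held at CD4 or CD8, phosphorylates these chains, the kinase Zap70 binds to them, and Zap70 in turn phosphorylates the adaptors Lat and Lcp2 (SLP-76). A resting T cell also needs a costimulatory signal, of which CD28 is the best known source, and CD5, CD6 and Ubash3a hold the response back. Tcf7, Lef1, Bcl11b, Satb1, Gata3 and Tox are transcription factors that set up or maintain the lineage.

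The libraries held 22148400 to 39947430 exon reads. The 5 genes with the most exon reads all lay in the globin loci, a trace of red cells. Their share of exon reads is called the globin share. It was 43.0% to 56.3% in normoxia, 1.42% to 29.0% at day 28 and 40.5% to 44.4% at day 56. Intron reads made up 14.6%, 6.60% and 5.37% of gene reads in normoxia replicates 1, 2 and 3, against 14.2% to 24.9% at day 28 and 11.9% to 16.9% at day 56. Normoxia replicate 1 thus stood apart from the other normoxia libraries. Several results are given with and without it, and every T cell gene called without it is named below. Day 28 replicate 3 had a globin share of 29.0%, against 1.42% and 4.83% in the other day 28 libraries. At day 28 the globin share did not overlap normoxia, and the share of intron reads overlapped only through normoxia replicate 1. A model that includes either share can therefore hardly separate it from the group at day 28. Cells of the T lineage were present in every library: Cd3e had 4328 to 8229 reads, and none of the 30 genes was at 0 reads in any library. The fewest reads were 199, for Themis, and the most were 13292, for Lck.

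Levels are given as CPM, the exon reads of a gene after each library was scaled to a common total with its TMM factor. Levels of different genes were compared only per kb of exon length. On that scale, averaged over the 9 libraries, the highest levels were those of Cd3g (195 CPM per kb), Lck (162), Cd3d (156), Cd3e (155), Lat (137) and Cd8a (129). These are the gamma, delta and epsilon chains of CD3, a kinase, an adaptor and a coreceptor, while the zeta chain Cd247 was at 80.8. The order differed between groups: Cd3d ranked 2 of 30 in normoxia, 6 at day 28 and 6 at day 56, Lck ranked 5, 2 and 1, and Cd8a ranked 6, 3 and 5. The rank of Cd3d in normoxia came from replicates 2 and 3, at 274 and 255 CPM per kb, while replicate 1 was at 119. Neighbours in this order were not tested against each other. The lowest were Tox (4.42 CPM per kb), Trat1 (6.95), Themis (9.62), Gata3 (9.75) and Icos (10.3).

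**Figure D1:**
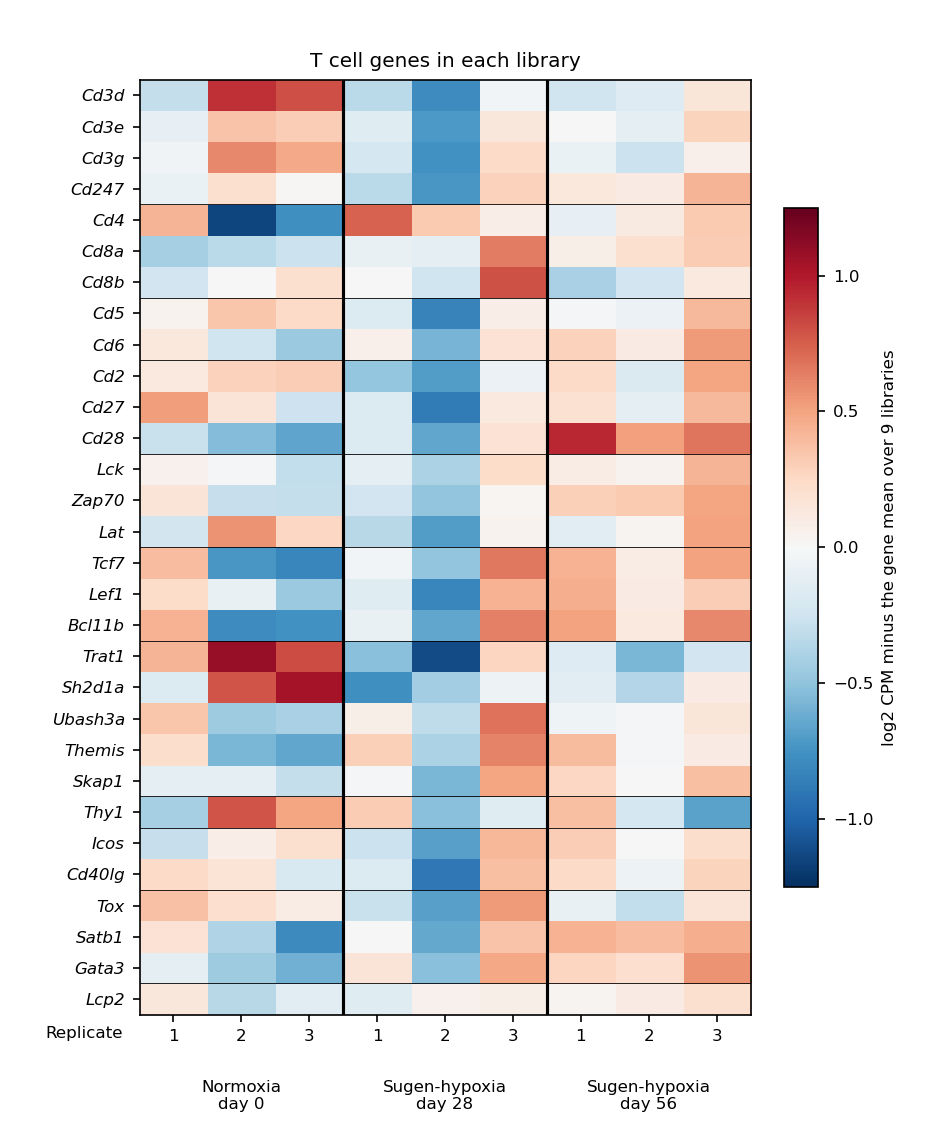
Level of the 30 T cell genes (rows) in the 9 libraries (columns), as log2 CPM minus the mean of the gene over the 9 libraries, with thin lines between genes of different roles. Cd28 is high in the 3 day 56 libraries, Trat1 is high in the 3 normoxia libraries, and most genes are low in day 28 replicate 2.

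Few of these genes differed between groups beyond the spread of the libraries. At day 28, 0 of 30 passed the test against normoxia (edgeR's quasi-likelihood test, Benjamini-Hochberg adjusted p under 0.05), where 0.129% of all genes tested did. With an unadjusted p under 0.05 there were 5 of 30, against 28.8% of all genes, and DESeq2 called 2 of 30, against 13.1%. At day 56, 1 of 30 passed against normoxia, Cd28, where 7.12% of all genes did. With an unadjusted p under 0.05 there were 7 of 30, against 30.9% of all genes, and DESeq2 called 2 of 30, Cd28 and Trat1, against 18.5%. Between day 56 and day 28, 0 of 30 passed by edgeR, where 0.546% of all genes did. In that comparison 3 of 30 had an unadjusted p under 0.05, against 18.5%, and DESeq2 called 1 of 30, Cd28, against 7.93%. The median log2 fold change of the 30 genes was −0.05 at day 28 and 0.17 at day 56 against normoxia, and 0.27 at day 56 against day 28. Over all genes tested the medians were −0.01, −0.04 and −0.01.

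**Figure D2:**
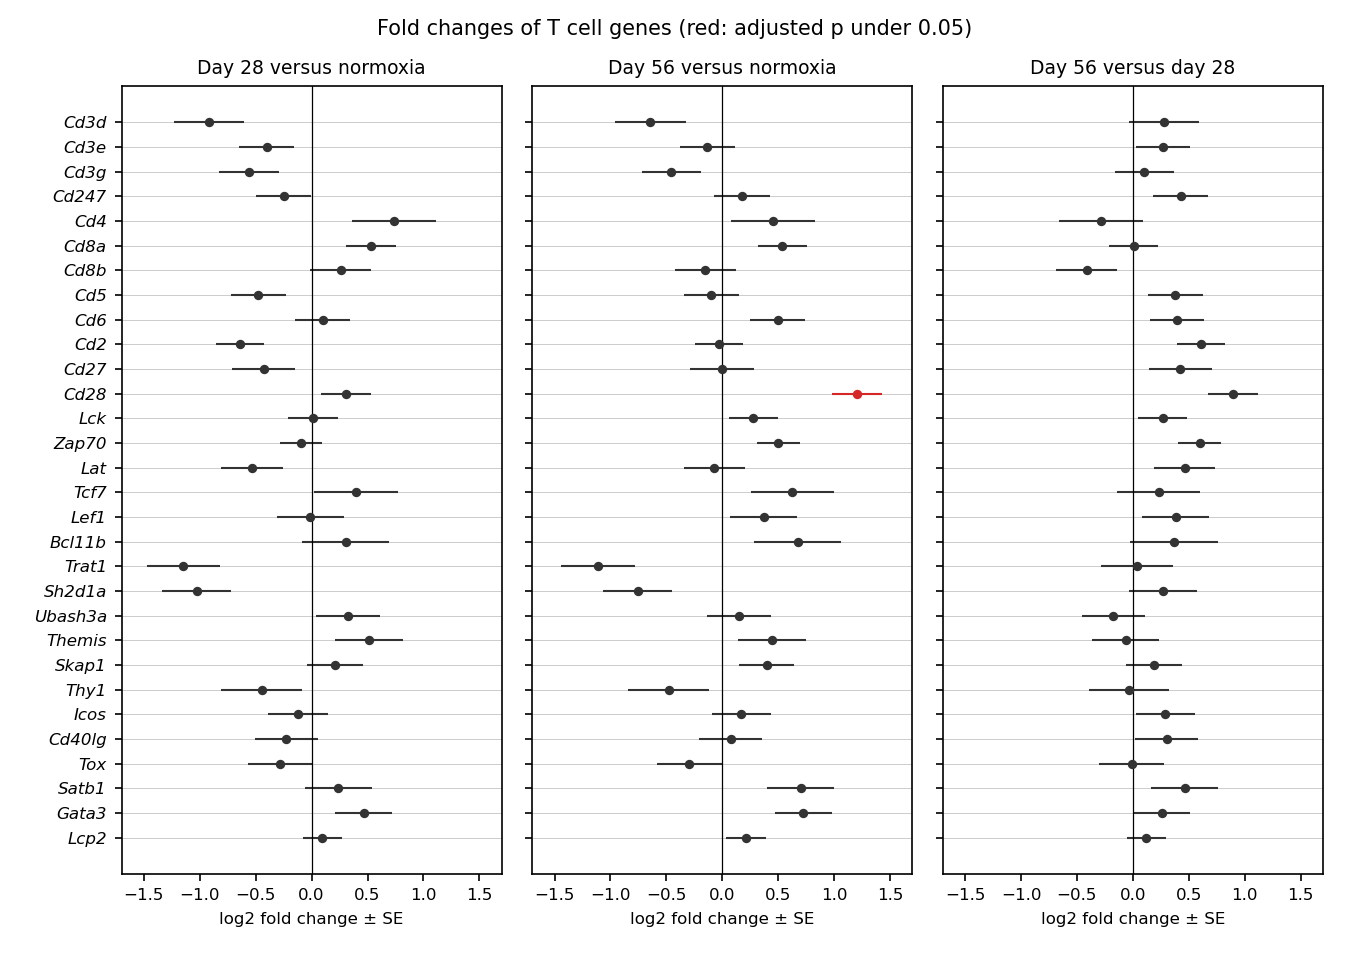
Log2 fold change with its standard error for each of the 30 genes in the 3 comparisons, in the same gene order. The only gene in red, past the adjusted threshold, is Cd28 at day 56 against normoxia, at 1.20.

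Cd28, the main costimulatory receptor of T cells, rose at day 56. It lies on chr9:67546407-67571871 of rn6. It had 32.2, 26.9 and 24.7 CPM in normoxia, 34.7, 25.0 and 44.2 CPM at day 28, and 75.3, 55.6 and 62.1 CPM at day 56. All 3 day 56 libraries lay above all 6 others, while day 28 and normoxia overlapped. Day 56 exceeded normoxia 2.30-fold (log2 fold change 1.20, SE 0.23, adjusted p = 0.0208). Against day 28, the log2 fold change of day 56 was 0.90 (SE 0.22, adjusted p = 0.0949 by edgeR and 0.0117 by DESeq2). At day 28 the log2 fold change against normoxia was 0.31 (SE 0.22, adjusted p = 0.362). In the day 56 comparison with normoxia, 13 of 19 alternative settings kept the call, and log2 fold changes ran from 1.08 to 1.33. It was lost with the intron share of each library as a covariate (adjusted p = 0.0720), and on leaving out normoxia replicate 2 (0.0878) or 3 (0.0919) or day 56 replicate 1 (0.0612), 2 (0.0635) or 3 (0.0810). Without normoxia replicate 1 the log2 fold change was 1.33 (adjusted p = 0.00302), and with the globin share as a covariate it was 1.22 (adjusted p = 0.0295).

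Reads in the introns of Cd28, a separate readout of the same gene, were higher in both later groups than in normoxia and not highest at day 56. Scaled like CPM, but to the total of intron reads of each library, they came to 174, 110 and 101 in normoxia, 231, 179 and 343 at day 28, and 259, 176 and 193 at day 56. The day 28 and day 56 libraries overlapped, and day 28 replicate 3 was the highest of all. Both later groups lay above normoxia, though day 56 replicate 2 and normoxia replicate 1 were nearly level. The labels do not say whether reads were counted by strand, so intron reads from a transcript on the opposite strand could be among them.

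Icos, a relative of CD28 with a role in help to B cells, is the next member along the chromosome, at chr9:67763896-67785580 of rn6, and did not pass the test. It had 17.5, 22.6 and 24.5 CPM in normoxia, 17.7, 13.3 and 28.4 CPM at day 28, and 26.4, 21.4 and 24.8 CPM at day 56, so that the groups overlapped. Its log2 fold change at day 56 against normoxia was 0.17 (SE 0.27, adjusted p = 0.692). The ratio of Cd28 to Icos, on the scale of CPM per kb, was 4.73, 4.30 and 4.15 at day 56. In normoxia it was 3.05, 1.98 and 1.67, with no overlap. At day 28 it was 3.24, 3.11 and 2.58. To show the sequence before each start, the promoters of these neighbours are printed with that of Trat1, the member with the lowest fold changes against normoxia. They are RefSeq sequences of build GRCr8, which is not the build of the table, from 250 bases before to 50 bases after the start. All are read 5′ to 3′ on the plus strand.
Cd28, chr9:69660066-69660365: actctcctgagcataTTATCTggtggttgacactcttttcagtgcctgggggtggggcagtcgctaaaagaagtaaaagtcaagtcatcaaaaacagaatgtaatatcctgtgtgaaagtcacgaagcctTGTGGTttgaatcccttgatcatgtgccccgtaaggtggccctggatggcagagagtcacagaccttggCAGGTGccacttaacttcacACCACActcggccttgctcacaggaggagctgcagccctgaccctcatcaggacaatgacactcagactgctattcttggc
Icos, chr9:69877549-69877848: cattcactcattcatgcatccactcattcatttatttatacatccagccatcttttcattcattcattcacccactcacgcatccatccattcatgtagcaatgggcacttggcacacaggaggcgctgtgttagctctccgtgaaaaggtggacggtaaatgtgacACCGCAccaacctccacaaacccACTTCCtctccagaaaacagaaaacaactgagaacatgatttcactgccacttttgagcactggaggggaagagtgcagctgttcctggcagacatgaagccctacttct
Trat1, chr11:65498492-65498791: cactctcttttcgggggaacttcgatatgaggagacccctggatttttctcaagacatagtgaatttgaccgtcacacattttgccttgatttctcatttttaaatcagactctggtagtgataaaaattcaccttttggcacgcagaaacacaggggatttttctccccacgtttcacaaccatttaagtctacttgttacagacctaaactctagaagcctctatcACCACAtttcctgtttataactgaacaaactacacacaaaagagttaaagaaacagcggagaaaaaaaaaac
Capitals mark matches, on either strand, to 7 short motifs of factors that act in T cells: the RUNX motif TGTGGT with its variant TGCGGT, the ETS motif GGAAGT, the TCF/LEF motif CTTTGA, the GATA motif AGATAA, the AP-1 motif TGAGTCA and the E-box CACCTG. The Cd28 window held TGTGGT on both strands, AGATAA and CACCTG on the opposite strand. The Icos window held TGCGGT and GGAAGT, and the Trat1 window TGTGGT, all on the opposite strand. Promoters were given for 21 of the 30 genes, as 22 windows. TGTGGT stood in 6 of these 22 and in 17.3% of all 33469 promoters of that length. GGAAGT stood in 10 of 22 and in 22.6% of all, and CACCTG in 8 of 22 and in 18.8% of all. CTTTGA stood in 5 of 22 and in 16.1% of all, and AGATAA in 3 of 22 and in 11.6%. TGCGGT stood in 2 of 22 and in 6.39% of all, and TGAGTCA in 2 of 22 and in 4.63%. Such a match describes the letters and is not evidence of a bound factor.

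Trat1 encodes TRIM, a transmembrane adaptor that associates with the T cell receptor, and lies on chr11:54619128-54662353 of rn6. It had 24.6, 39.0 and 32.2 CPM in normoxia, 12.8, 8.43 and 22.0 CPM at day 28, and 16.4, 12.4 and 15.6 CPM at day 56. All 6 libraries of the Sugen-hypoxia rats lay below all 3 normoxia libraries. The log2 fold change was −1.15 at day 28 (SE 0.33, adjusted p = 0.0937 by edgeR and 0.0204 by DESeq2) and −1.11 at day 56 (SE 0.33, adjusted p = 0.0654 by edgeR and 0.0176 by DESeq2). It therefore missed edgeR's threshold at both days. Of 19 alternatives, 3 called it at day 28 and 5 at day 56, all of them as lower. With each library's share of intron reads in the model, the log2 fold change was −0.45 at day 28 (adjusted p = 1.00) and −0.73 at day 56 (adjusted p = 0.259). With the globin share as a covariate it was −0.57 at day 28 (adjusted p = 0.790) and −1.07 at day 56 (adjusted p = 0.0728). At day 28 neither model can well separate the share from the group, and each called only 1 of all genes. Relative to Cd3e, Trat1 was at 0.0319, 0.0311 and 0.0450 at day 28 and at 0.0368, 0.0299 and 0.0289 at day 56, against 0.0595, 0.0684 and 0.0587 in normoxia. On this ratio normoxia replicate 1 lay with the other normoxia libraries, and no library of either later day reached them. Its intron reads did not separate the groups. On the same scale they came to 47, 41.5 and 24.9 in normoxia, 43.9, 27.0 and 73.5 at day 28, and 45.2, 32.6 and 29.9 at day 56.

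**Figure D3:**
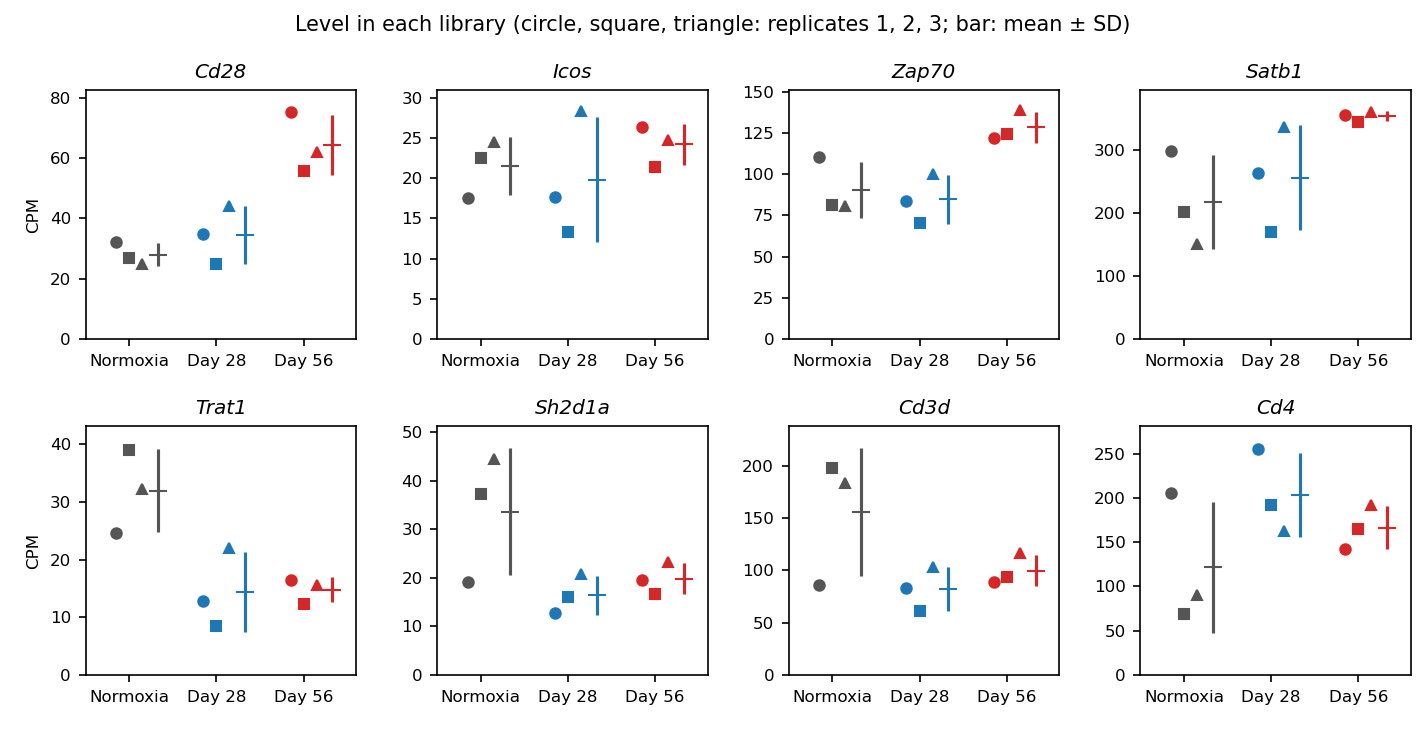
CPM of 8 genes in each library, with the group mean and SD (n = 3) at the right of each group. Cd28 at day 56 (55.6 to 75.3 CPM) and Trat1 at both later days (8.43 to 22.0 CPM) lie apart from normoxia, while Cd3d, Sh2d1a and Cd4 in normoxia are split between replicate 1 and the other replicates.

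Among the CD3 chains, which carry the signal of the receptor, none passed the test. Cd3d had 85.5, 197 and 184 CPM in normoxia, 83.3, 60.9 and 103 CPM at day 28, and 88.6, 93.8 and 116 CPM at day 56. Normoxia replicate 1 lay among the later libraries and the other normoxia libraries above them all. The log2 fold change was −0.92 (SE 0.32, adjusted p = 0.118) at day 28 and −0.64 (SE 0.31, adjusted p = 0.194) at day 56. Without normoxia replicate 1 these were −1.18 (adjusted p = 0.00300) and −0.92 (adjusted p = 0.00882). With each library's intron share in the model they were 0.03 (adjusted p = 1.00), with the sign turned, and −0.16 (adjusted p = 0.768). With its globin share they were −0.61 (adjusted p = 0.790) and −0.62 (adjusted p = 0.236). Share and group can hardly be separated at day 28. Cd3e had 212, 292 and 281 CPM in normoxia, 204, 139 and 251 CPM at day 28, and 228, 211 and 276 CPM at day 56, which overlap. Its log2 fold changes were −0.40 (SE 0.25, adjusted p = 0.284) and −0.13 (SE 0.25, adjusted p = 0.743). The ratio of Cd3d to Cd3e was 0.81 to 0.92 in all 6 libraries of the Sugen-hypoxia rats and 0.84 in normoxia replicate 1, against 1.41 and 1.36 in normoxia replicates 2 and 3. Cd3g averaged 102 ± 34.4 CPM at day 28 and 109 ± 12.7 CPM at day 56, against 150 ± 33.1 CPM in normoxia (SD, n = 3 each). Cd247, the zeta chain, averaged 117 ± 42.4 CPM at day 28 and 157 ± 19.8 CPM at day 56, against 139 ± 14.1 CPM in normoxia, differences within the spread. The 3 genes Cd3g, Cd3d and Cd3e lie side by side on chromosome 8.

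Of the coreceptors, Cd8a had a non-overlapping level at both later days. It had 164, 161 and 272 CPM at day 28 and 183, 200 and 216 CPM at day 56, against 131, 138 and 145 CPM in normoxia. Every later library lay above every normoxia library. The log2 fold change was 0.53 (SE 0.22) at day 28 and 0.54 (SE 0.22) at day 56, with adjusted p-values of 0.154 and 0.136, and no alternative called it. With the intron or the globin share in the model it was 1.02 or 1.05 at day 28 (adjusted p = 0.893 and 0.790). Cd8b, the other chain of the CD8 heterodimer, overlapped: it had 49.2, 41.0 and 85.2 CPM at day 28 and 37.0, 41.6 and 53.1 CPM at day 56, against 41.4, 48.9 and 56.2 CPM in normoxia. The ratio of Cd8a to Cd8b was 3.52, 4.15 and 3.38 at day 28 and 5.23, 5.08 and 4.31 at day 56, against 3.34, 2.97 and 2.73 in normoxia. It was thus higher in every later library, and highest at day 56. In rats, natural killer cells also carry the CD8 alpha chain. The summed level of 12 markers of those cells ran from 381 to 753 CPM at day 28 and from 800 to 1004 CPM at day 56, against 533 to 830 CPM in normoxia, and the defining markers Nkg7, Klrd1 and Ncr1 were above 0 in every library. By edgeR 1 of the 12 markers passed against normoxia, at day 56, where 7.12% of all genes did. It was Tbx21, at 35.7, 40.3 and 52.5 CPM at day 56 and 20.4, 12.3 and 19.3 CPM in normoxia (log2 fold change 1.31, SE 0.31, adjusted p = 0.0407). Which cells the Tbx21 reads came from was not tested. Of the 12 log2 fold changes at day 56, 9 were positive and 3 negative. Klrd1 had 70.6, 36.2 and 41.1 CPM at day 56, against 27.7, 73.6 and 89.9 CPM in normoxia. The part of natural killer cells in the Cd8a levels was not tested.

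Cd4, the coreceptor of helper T cells, had 255, 192 and 162 CPM at day 28 and 143, 165 and 192 CPM at day 56, against 206, 68.8 and 90.1 CPM in normoxia. Normoxia replicate 1 lay among the later libraries, and normoxia replicates 2 and 3 lay below them all. The log2 fold change was 0.74 (SE 0.37, adjusted p = 0.215) at day 28 and 0.45 (SE 0.37, adjusted p = 0.428) at day 56. Without normoxia replicate 1 it was 1.38 (adjusted p = 0.00195) and 1.08 (adjusted p = 0.00500). With the intron share in the model it was −0.11 at day 28 (adjusted p = 1.00), with the direction turned, and 0.15 at day 56 (adjusted p = 0.812), and with the globin share 0.21 and 0.43. These models can hardly separate the shares from the group at day 28. Rat monocytes express CD4 as well. Of 12 markers of monocytes, 11 were found by symbol and 9 were tested. The 11 summed to 3196 to 10389 CPM at day 28 and 1755 to 2742 CPM at day 56. In normoxia the sum was 2134 to 4441 CPM. Most of each sum was Lyz2, such as 8606 of the 10389 CPM in day 28 replicate 2. None of the 9 passed the test by edgeR at either day, though 6, all higher, had an unadjusted p under 0.05 at day 28, where 28.8% of all genes did, and 2, of which 1 was higher and 1 lower, at day 56, where 30.9% did. DESeq2 called 5 of them at day 28 and 1 at day 56, all as higher, against 13.1% and 18.5% of all genes. The markers Cd14, Csf1r and Lyz2 were above 0 in every library. The part of monocytes in the Cd4 levels was not tested.

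The remaining surface receptors did not pass the test. Cd2, an adhesion receptor that aids activation, had 52.2, 45.2 and 69.4 CPM at day 28, against 79.4, 89.4 and 90.5 CPM in normoxia, without overlap. Its log2 fold change was −0.64 (SE 0.21, adjusted p = 0.116), and −0.67 (adjusted p = 0.0396) without normoxia replicate 1. With the intron or the globin share in the model it was −0.26 (adjusted p = 1.00) or −0.32 (adjusted p = 0.797). Here too, share and group can hardly be separated. At day 56 Cd2 had 86.1, 64.8 and 103 CPM, which overlapped both other groups, with a log2 fold change of −0.03 against normoxia. Cd27, a costimulatory receptor of the TNF receptor family, averaged 84.5 ± 27.6 CPM at day 28 and 113 ± 20.1 CPM at day 56, against 114 ± 30.3 CPM in normoxia. Cd40lg, by which helper cells stimulate B cells, averaged 42.2 ± 17.6 CPM at day 28 and 52.0 ± 6.46 CPM at day 56, against 49.4 ± 7.43 CPM in normoxia. All 3 groups overlapped for Cd27 and Cd40lg. Cd5 averaged 101 ± 30.5 CPM at day 28 and 131 ± 24.8 CPM at day 56, against 140 ± 14.9 CPM in normoxia. Cd6 averaged 164 ± 42.4 CPM at day 28 and 215 ± 32.4 CPM at day 56, against 153 ± 32.7 CPM in normoxia. Only 80.5% of the Cd6 reads mapped to a single place, against 100% for the other 29 genes. Thy1, which in rats marks thymocytes and T cells that have recently left the thymus, had 17.8, 9.93 and 12.9 CPM at day 28 and 18.4, 12.2 and 8.98 CPM at day 56, against 10.7, 24.6 and 20 CPM in normoxia, with overlap throughout.

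Among the kinases and adaptors, Zap70 stood higher at day 56. It had 110, 81.0 and 80.6 CPM in normoxia, 83.9, 70.3 and 100 CPM at day 28, and 122, 124 and 139 CPM at day 56. All day 56 libraries lay above all others. The log2 fold change of day 56 was 0.50 against normoxia (SE 0.19, adjusted p = 0.115) and 0.60 against day 28 (SE 0.19, adjusted p = 0.142), neither past the threshold. Without normoxia replicate 1 they were 0.68 (adjusted p = 0.00836) and 0.59 (adjusted p = 0.0415). Lck averaged 316 ± 69.2 CPM at day 28 and 380 ± 56.8 CPM at day 56, against 314 ± 39.4 CPM in normoxia. Lat averaged 128 ± 33.0 CPM at day 28 and 176 ± 42.0 CPM at day 56, against 185 ± 49.2 CPM in normoxia. Lcp2, which partners Lat, averaged 181 ± 15.3 CPM at day 28 and 197 ± 11.6 CPM at day 56, against 170 ± 29.3 CPM in normoxia. The groups overlapped for these 3 genes.

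Sh2d1a, which encodes the SLAM-associated protein SAP, had 12.7, 16.0 and 20.7 CPM at day 28 and 19.5, 16.8 and 23.2 CPM at day 56, against 19.1, 37.2 and 44.4 CPM in normoxia. Normoxia replicate 1 again lay among the later libraries. The log2 fold change was −1.03 (SE 0.31, adjusted p = 0.0985 by edgeR and 0.0299 by DESeq2) at day 28 and −0.76 (SE 0.31, adjusted p = 0.132 by edgeR and 0.101 by DESeq2) at day 56. Without normoxia replicate 1 it was −1.28 (adjusted p = 0.00238) and −1.02 (adjusted p = 0.00606). With the intron share as a covariate it was 0.01 at day 28, where the sign turned, and −0.21 at day 56. With the globin share it was −0.49 and −0.71. None of these had an adjusted p under 0.05, and at day 28 share and group can hardly be separated. Themis, an adaptor needed when thymocytes are selected, averaged 23.9 ± 7.89 CPM at day 28 and 22.8 ± 3.42 CPM at day 56, against 16.7 ± 5.99 CPM in normoxia. Skap1, an adaptor that links the receptor to integrins, had 96.1, 80.3 and 104 CPM at day 56, against 73.4, 74.1 and 65.1 CPM in normoxia, without overlap. Its log2 fold change was 0.40 (SE 0.25, adjusted p = 0.293). Ubash3a averaged 32.1 ± 11.3 CPM at day 28 and 28.4 ± 2.21 CPM at day 56, against 25.6 ± 8.45 CPM in normoxia, with overlap.

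No transcription factor of the list passed the test. Satb1, an organiser of chromatin in T cells, had 298, 202 and 152 CPM in normoxia, 263, 169 and 337 CPM at day 28, and 356, 345 and 361 CPM at day 56. Its day 56 libraries lay close together and above all others, and the log2 fold change against normoxia was 0.70 (SE 0.30, adjusted p = 0.148). This fold change was 1.01 (adjusted p = 0.0167) without normoxia replicate 1. Gata3, known for its part in T helper 2 cells and in early T cell development, had 30.1, 28.8 and 36.9 CPM at day 56, against 23.1, 18.3 and 16.5 CPM in normoxia. These did not overlap, and the log2 fold change was 0.73 (SE 0.25, adjusted p = 0.0974 by edgeR and 0.0507 by DESeq2). Leaving out normoxia replicate 1 gave 0.89 (adjusted p = 0.0293 by edgeR). Tcf7, which encodes TCF-1, had 143, 104 and 231 CPM at day 28 and 197, 156 and 207 CPM at day 56, against 191, 88.0 and 83.0 CPM in normoxia. Bcl11b, required to commit to the T lineage, had 53.3, 36.3 and 87.9 CPM at day 28 and 80.7, 62 and 86.2 CPM at day 56, against 76.8, 32.9 and 33.7 CPM in normoxia. For both, normoxia replicate 1 lay within the day 56 range, and the log2 fold changes at day 56 were 0.63 (SE 0.37, adjusted p = 0.273) and 0.67 (SE 0.39, adjusted p = 0.262). Without that library they were 1.14 (adjusted p = 0.0185) for Tcf7 and 1.21 (adjusted p = 0.0207) for Bcl11b. Lef1 averaged 101 ± 42.4 CPM at day 28 and 132 ± 16.2 CPM at day 56, against 102 ± 24.1 CPM in normoxia. Tox averaged 12.8 ± 5.73 CPM at day 28 and 12.7 ± 2.03 CPM at day 56, against 15.5 ± 1.44 CPM in normoxia.

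Counted by overlap, 1 of 30 genes (Cd8a) lay wholly above normoxia at day 28, against 11.4% of all genes, and 2 (Cd2 and Trat1) wholly below, against 11.8%. At day 56, 6 genes (Cd8a, Cd28, Zap70, Skap1, Satb1 and Gata3) lay wholly above normoxia, against 15.6% of all genes, and 1 (Trat1) wholly below, against 14.9%. Between day 56 and day 28, 3 genes (Cd28, Zap70 and Satb1) lay wholly higher, against 17.8% of all genes, and none wholly lower, against 17.4%.

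The summed level of the 30 genes was 3265, 3128 and 2863 CPM in normoxia, 2935, 2219 and 3751 CPM at day 28, and 3455, 3241 and 4004 CPM at day 56. The day 28 libraries spanned both other groups, apart from the highest value, which was at day 56. In these bulk samples, fewer T cells and less RNA of these genes per cell cannot be told apart. Within day 28, replicate 3 was the highest of its group for 28 of 30 genes and replicate 2 the lowest for 27. The same was not counted over all genes, so this cannot be read as particular to the T cell genes. Replicate 2 was also the day 28 library with the highest monocyte sum, 10389 CPM, against 4365 and 3196 CPM in replicates 1 and 3. Most of that sum was Lyz2, at 8606 CPM in replicate 2 and 3236 and 2434 CPM in replicates 1 and 3. Within day 56, replicate 3 was the highest for 24 of 30 genes and replicate 2 the lowest for 21, again with no count over all genes. The median coefficient of variation over the 30 genes was 20.1% in normoxia, 32.7% at day 28 and 14.7% at day 56. Of 12 B cell markers, 11 were found by symbol, and all 11 were tested. Their sum was 1449, 1215 and 804 CPM at day 28 and 1142, 1131 and 676 CPM at day 56. In normoxia it was 1384, 2256 and 1512 CPM. By edgeR 1 of the 11 passed against normoxia, lower at day 56, where 7.12% of all genes passed. This was Cd79b, at 177, 174 and 123 CPM at day 56 and 294, 678 and 464 CPM in normoxia.

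**Figure D4:**
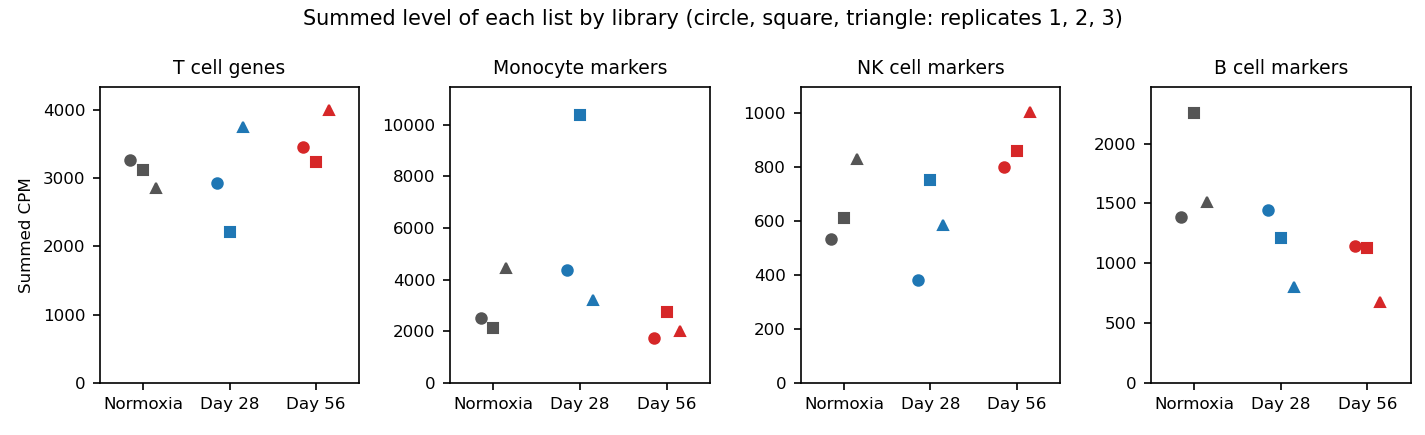
Summed CPM of the 30 T cell genes and of the monocyte, natural killer (NK) and B cell markers in each library, with a separate axis from 0 in each panel. The T cell sums of normoxia, day 28 and day 56 overlap in range (2863 to 3265, 2219 to 3751 and 3241 to 4004 CPM), and day 28 replicate 2, the lowest T cell sum, has the highest monocyte sum. Lyz2 alone is 8606 CPM of that sum of 10389 CPM.

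Many of the values above depend on normoxia replicate 1. Without it, 7 of 30 genes passed the test at day 28, where 45.2% of all genes did. Cd4, Tcf7 and Themis were then higher, and Cd2, Cd3d, Sh2d1a and Trat1 lower. At day 56, 13 of 30 passed, where 43.0% of all genes did. Cd28, Cd4, Cd6, Bcl11b, Gata3, Lcp2, Satb1, Tcf7, Themis and Zap70 were higher, and Cd3d, Sh2d1a and Trat1 lower. Between day 56 and day 28, Cd28 and Zap70 passed, 2 of 30, against 7.89% of all genes. The difference between normoxia replicate 1 and the mean of the other normoxia libraries varied with the exon length of the gene. Of the 15 members with exons of up to 1912 bases, 5 were higher in replicate 1 (median log2 difference −0.19), and of the 15 longer ones 12 were higher (median 0.41). Across the 30 genes Spearman's rho was 0.58, and across all 12447 genes it was 0.39. Genes share their libraries and are not independent replicates, so no p is given. The fold changes against normoxia also varied with exon length across members, with a rho of 0.32 at day 28 and 0.39 at day 56, against 0.35 and 0.29 over all genes, while day 56 against day 28 gave 0.03 and −0.09. The part of exon length in the fold changes was not tested.

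**Figure D5:**
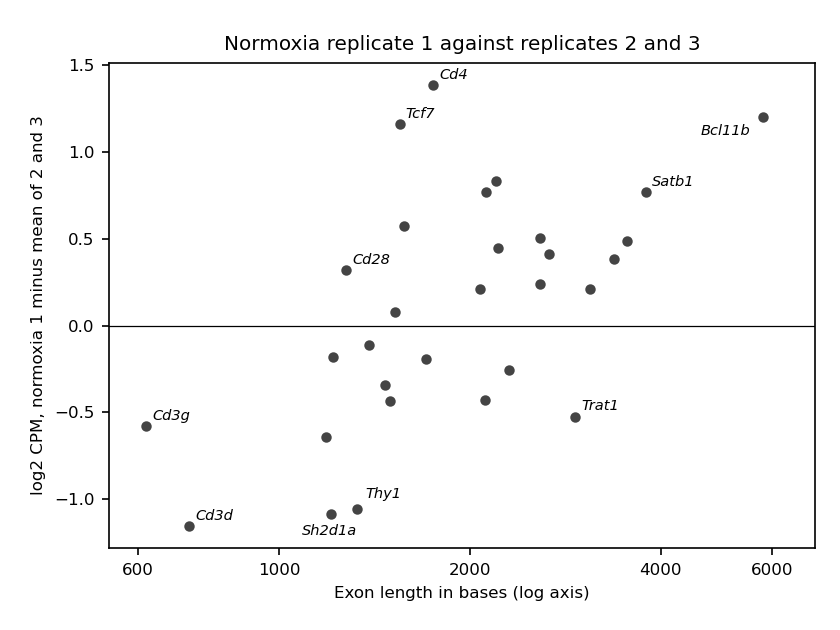
Difference in log2 CPM between normoxia replicate 1 and the mean of normoxia replicates 2 and 3 (vertical axis) against exon length in bases (log horizontal axis), with 1 point for each of the 30 genes. Short genes such as Cd3d (721 bases, −1.15) lie low and long genes such as Bcl11b (5798 bases, 1.20) lie high.

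Of 41 further genes of the receptor pathway (kinases, phosphatases, adaptors and calcium signalling), 39 were tested. At day 28, 0 of 39 passed against normoxia by edgeR, 9 had an unadjusted p under 0.05, and DESeq2 called 4 as higher and 3 as lower, where the shares of all genes were 0.129%, 28.8% and 13.1%. At day 56 edgeR called 0 as higher and 1 as lower, 15 had an unadjusted p under 0.05, and DESeq2 called 6 as higher and 1 as lower, where the shares of all genes were 7.12%, 30.9% and 18.5%. Between day 56 and day 28, 0 passed by edgeR, 5 had an unadjusted p under 0.05, and DESeq2 called 3 as higher, where the shares of all genes were 0.546%, 18.5% and 7.93%. The gene that fell was Nck1, an adaptor that ties the receptor to the actin skeleton. It had 15.9, 13.9 and 15.0 CPM at day 56, against 21.8, 35.1 and 37.4 CPM in normoxia, without overlap (log2 fold change −1.07, SE 0.21, adjusted p = 0.0238). The median log2 fold change of the 39 genes was 0.16 at day 28, 0.18 at day 56 and 0.09 between the later days.

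Among genes of resting and recirculating lymphocytes, S1pr1, the receptor by which lymphocytes leave lymphoid tissue, passed the test at day 56 and is named here after its values were seen. It rose to 734, 459 and 525 CPM at day 56, against 267, 294 and 230 CPM in normoxia, without overlap (log2 fold change 1.12, SE 0.28, adjusted p = 0.0435). Other blood leukocytes express S1pr1 as well, and the source of its reads was not tested.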

How the data were processed

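RNA sequencing was done on peripheral blood mononuclear cells in 9 libraries, in 3 groups of 3 as labelled. Per the submitters' processing notes, the build was rn6 and FastQC was among the tools; the aligner is not given in the sources used here. Per the file headers, the authors deposited raw counts per Ensembl gene: exon reads, uniquely mapped exon reads, intron reads and gene reads, with the exon length in bases. Some columns of the deposited counts are formally estimated counts because fractions stand on broken lines, but none stands on an intact line, so nothing was rounded. Of 22085 lines, 8 were broken and left out, and 90 further columns of values per sample were not used.

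The main test on the counts was edgeR's quasi-likelihood test (edgeR 4.0.16, R 4.3.3, TMM factors, filterByExpr with a minimum count of 10, 1 mean per group over 9 libraries), with Benjamini-Hochberg adjustment over 12447 genes at 0.05. The common biological coefficient of variation was 0.28. DESeq2 1.42.0 and 18 other alternatives were run, leaving out each library among them. Where a group was left with 2 libraries, these were assumed to vary like the other groups. The edgeR test was also tried on simulated counts. These held no differences between libraries in intron share, globin share or exon length, so the trial does not bear on such effects. No pair of replicate libraries agreed within sampling noise. Promoters are RefSeq sequences of GRCr8.

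All members were named whatever their result, and of the other receptor-pathway genes those that passed the test. The members and lists were chosen with earlier results of these data known. A further item of a list is not reported here.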

Additional observations from a re-analysis of the deposited data

How the results depend on the processing

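At day 28 against normoxia, the count of 0 of the 30 T cell genes became 2 with DESeq2 and 0 to 7 on leaving out 1 library. At day 56, the count of 1 became 2 with DESeq2, 0 with the intron share as a covariate, 2 in a fit of only the 2 groups compared, and 0 to 13 on leaving out 1 library. Between day 56 and day 28, the count of 0 became 1 with DESeq2 and 0 to 2 on leaving out 1 library. The highest counts were those without normoxia replicate 1, and without day 28 replicate 3 Trat1 was called at day 28. Over all genes, the count of 16 at day 28 became 1661 with DESeq2, 8 with RLE factors, 79 with upper-quartile factors, 151 with no filter, 72 with uniquely mapped reads, 1 with the intron share and 1 with the globin share as a covariate, 2 in a fit of only the 2 groups compared, and 2 to 5732 on leaving out 1 library. The count of 886 at day 56 became 2343 with DESeq2, 138 with the intron share and 503 with the globin share as a covariate, 348 in a fit of only the 2 groups, and 85 to 5453 on leaving out 1 library. The count of 68 between the later days became 1057 with DESeq2, 0 with the globin share as a covariate, 590 in a fit of only the 2 groups, and 3 to 1002 on leaving out 1 library. At day 28, 11 of the 16 called genes were higher, against 8 of 8 with RLE and 31 of 79 with upper-quartile factors. The cause was not tested. Across 1710 pairs of a member's comparison and an alternative, 1674 kept their side of the threshold, 30 gained a call, 6 lost one (all Cd28 at day 56) and 0 called values changed sign. Values called neither in the main test nor in that alternative changed sign in 38, 19 and 45 of 570 pairs in the 3 comparisons. Some of these genes, such as Sh2d1a at day 28, were called in another alternative. With 3 libraries a group, a difference smaller than the spread between them was not detectable.

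Replicates with the same number in the titles did not deviate together: the 9 correlations of their deviations from the group means ran from −0.15 to 0.17, so the numbers were not taken as pairs. With the replicate number as a block, 0, 1 and 0 of the T cell genes were called in the 3 comparisons, as without it, and 223, 540 and 186 of all genes.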
